A study of Mus musculus with 6 samples.

Results

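The transcripts of 10 proteins that work with O-GlcNAc transferase (OGT) on chromatin were followed in Treg cells with and without OGT. They are the dioxygenase genes *Tet1*, *Tet2* and *Tet3*, *Hcfc1* (encoding HCF1), *Bap1*, *Asxl1*, *Asxl2*, *Sin3a*, *Foxk1* and *Foxk2*. The genes were chosen by name, and the table of 24420 gene symbols holds all 10. YFP+ Treg cells came from C57BL/6 female mice, 3 of them *Foxp3* YFP-Cre/wt *Ogt* wt/fl (OGT-sufficient) and 3 *Foxp3* YFP-Cre/wt *Ogt* fl/fl (OGT-deficient), and each sample is RNA of sorted cells from lymph nodes according to its label. All 6 mice thus carried the YFP-Cre fusion, which the *Foxp3* locus drives, on 1 X chromosome, and all carried at least 1 floxed *Ogt* allele. YFP marks the Treg cells that use the X chromosome with Cre, and which X chromosome of the *Ogt* wt/fl mice is floxed is not stated in the sources. Cells were sorted on YFP after enrichment with CD4 beads, and the labels give no age or treatment.

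OGT attaches N-acetylglucosamine to serines and threonines of nuclear and cytosolic proteins, and part of the OGT in the nucleus is bound to chromatin complexes. TET enzymes oxidize methylated cytosine in DNA, TET2 and TET3 bind OGT, and TET activity keeps enhancers of *Foxp3* demethylated in Treg cells. HCF1 is a scaffold of histone methyltransferase complexes that OGT both modifies and cleaves. BAP1 is the deubiquitinase that removes ubiquitin from histone H2A together with ASXL1 or ASXL2, and it binds HCF1, OGT and the forkhead factors FOXK1 and FOXK2. SIN3A is the scaffold of a histone deacetylase complex that also recruits OGT. The comparison asks whether the RNA of these partners differed when *Ogt* was deleted. It does not measure the proteins, their O-GlcNAc or their complexes.

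*Ogt* lies on the X chromosome at chrX:101640060-101684351 on the plus strand (GRCm38, the build the submitters name as mm10). Of the partners, only *Hcfc1* is also X-linked, at chrX:73942792-73966357 on the minus strand. The TET genes lie at chr10:62804570-62908996 (*Tet1*), chr3:133463679-133545139 (*Tet2*) and chr6:83362373-83459084 (*Tet3*), all on the minus strand. *Bap1* lies at chr14:31251450-31259944, *Asxl1* at chr2:153345829-153404007, *Asxl2* at chr12:3426857-3506852, *Sin3a* at chr9:57072040-57128366, *Foxk1* at chr5:142401497-142462011 and *Foxk2* at chr11:121259990-121309896, all on the plus strand. An exon of *Tet2*, *Asxl1*, *Asxl2* and *Sin3a* overlaps an exon of a gene on the opposite strand in GENCODE M21. The strand setting of the counting is not given in the sources used here, so reads of these 4 genes and of their antisense neighbours cannot be told apart.

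RefSeq (GRCm38.p6) held start-site windows, 250 bases before to 50 after the start, for 9 of the 10 partners, 10 windows in all because *Sin3a* has 2. Each of the 10 held a GC box (GGGCGG on either strand), which 62.3% of the windows of genes tested here also hold. The windows held between 13 and 59 CpG dinucleotides with a median of 23.5, and the median over windows of tested genes was 21. The 250 bases before the start are shown for the X-linked *Hcfc1* (chrX:73966358-73966607, minus strand), for *Foxk2*, whose window held the most CpG (chr11:121259737-121259986, plus strand), and for *Asxl1*, whose window held the fewest (chr2:153345580-153345829, plus strand). Capitals mark GC boxes, the YY1 core AAGATGG and the ETS core CCGGAAG, each searched on both strands. In *Hcfc1* the GC box and the ETS core share a base.
Hcfc1: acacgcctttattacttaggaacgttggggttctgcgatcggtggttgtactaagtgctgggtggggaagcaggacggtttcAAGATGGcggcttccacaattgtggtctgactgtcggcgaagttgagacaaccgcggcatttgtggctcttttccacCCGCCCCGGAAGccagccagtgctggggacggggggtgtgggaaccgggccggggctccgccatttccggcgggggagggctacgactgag
Foxk2: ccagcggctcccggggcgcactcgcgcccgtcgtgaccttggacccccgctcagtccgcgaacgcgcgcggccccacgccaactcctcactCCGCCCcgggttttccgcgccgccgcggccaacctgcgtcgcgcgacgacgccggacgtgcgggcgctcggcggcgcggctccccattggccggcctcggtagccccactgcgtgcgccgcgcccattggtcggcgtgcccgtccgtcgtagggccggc
Asxl1: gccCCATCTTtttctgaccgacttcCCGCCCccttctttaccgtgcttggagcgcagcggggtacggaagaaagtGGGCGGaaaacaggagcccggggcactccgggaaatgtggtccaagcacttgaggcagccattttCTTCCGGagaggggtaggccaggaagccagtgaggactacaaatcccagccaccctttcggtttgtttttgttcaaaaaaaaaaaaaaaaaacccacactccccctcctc
The YY1 core stood in 3 of the 10 windows (*Asxl1*, *Sin3a* and *Hcfc1*) and in 7.44% of the windows of tested genes. The ETS core stood in 3 (*Hcfc1*, *Asxl1* and *Asxl2*) and in 18.6%. Of the other motifs searched, the CRE half-site TGACG stood in 5 windows (31.8% of those of tested genes), CCAAT in 4 (37.9%), the E-box CACGTG in 2 (10.1%) and ACTACAA, the start of the ZNF143 and THAP11 motif, in 1 (4.32%). The windows of *Tet1* and *Tet2* held the GC box and no ETS or YY1 core. A match is a description of the sequence and shows no binding.

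Total counts per sample ranged from 3375454 to 4103552, and levels are given as CPM, counts scaled to a common library size with edgeR's TMM factors. The ribosomal RNA entry *Rn45s* made up between 24.2% (OGT-sufficient replicate 3) and 37.1% (OGT-deficient replicate 3) of these totals. OGT-sufficient replicate 3 stood apart, with a count in 18346 genes against 14412 to 15197 in the other samples and in 310 of 1125 olfactory receptor genes against 13 to 56. The 7 Treg and T-cell markers, *Foxp3*, *Il2ra*, *Ctla4*, *Ikzf2*, *Tnfrsf18*, *Cd3e* and *Cd4*, were each counted at least 117 times in every sample and summed to 1989 to 2954 CPM in OGT-sufficient and 2696 to 2931 CPM in OGT-deficient samples, lowest in OGT-sufficient replicate 3. The 12 macrophage markers, each with 110 or more counts in every sample, summed to 2095 to 4482 CPM in OGT-sufficient and 1551 to 6296 CPM in OGT-deficient samples. The 7 B-cell markers summed to 94.4 to 353 CPM and 91.1 to 152 CPM, highest in OGT-sufficient replicate 3, as were the other 8 markers (of CD8 T, NK, neutrophil and erythroid cells) with 767 CPM there and at most 369 CPM elsewhere. Among these 8, the NK receptor gene *Ncr1* had at most 2 counts in any sample. The erythroid genes *Slc4a1* and *Alas2* had 1714 and 726 counts in OGT-sufficient replicate 3, and the neutrophil gene *S100a9* had 292. *Cd8a* had 30 counts there, its highest, but *Cd8b1* had 56 there against 86 in OGT-deficient replicate 1. By edgeR's quasi-likelihood test, 1 of 7 Treg and T-cell markers and 0 of 12 macrophage markers had an unadjusted p under 0.05. So did 2 of 7 B-cell markers and 1 of the 5 others tested, where 7.1% of all genes tested did. The part of these cell types in the levels given next was not tested.

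*Ogt* had 562, 632 and 957 counts in OGT-sufficient replicates 1 to 3 and 327, 266 and 368 counts in OGT-deficient replicates 1 to 3. It had on average 190.0 ± 53.7 CPM in OGT-sufficient mice and 82.4 ± 14.6 CPM in OGT-deficient mice (SD, n = 3 each), with no overlap between the groups (log2 fold change -1.21, standard error 0.21, unadjusted p = 0.000301, adjusted p = 0.191 by edgeR). The ratio of OGT-deficient to OGT-sufficient cells was 0.433 (95% interval 0.311 to 0.604). In RNA of sorted cells, fewer cells that use a gene and less RNA per cell cannot be told apart. Counts are per gene symbol, so reads from the floxed part of *Ogt* and from the rest cannot be told apart either. How much of the remaining *Ogt* RNA came from other cell types was not tested, so the ratio is not a measure of deletion in Treg cells.

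None of the 10 partners passed the test of OGT-deficient against OGT-sufficient mice. At an adjusted p under 0.1, 0 of the 10 were called, where 0.0274% of the 10949 genes tested were, and at an unadjusted p under 0.05, 0 were, where 7.1% of all genes were (edgeR's quasi-likelihood test). At that threshold, DESeq2 also called 0 of the 10 (4.13% of all genes) and edgeR's exact test 0 (6.38%). All 10 passed the low-count filter, with between 77 and 1341 counts per sample, so depth did not keep any of them out of the test. The log2 fold changes lay between -0.18 for *Tet1* and 0.21 for *Hcfc1*, with a median of -0.12, where the median of all genes tested was -0.017. Values were below 0 for 8 partners, which was so for 52.7% of all genes. The groups did not overlap for 2 partners and for 13.2% of all genes tested. The 2 were *Hcfc1*, with the OGT-deficient mice above (5.72% of all genes), and *Asxl1*, with the OGT-deficient mice below (7.48%).

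The 95% intervals show how large a difference these 6 mice leave possible. For all 10 partners they ended short of a 2-fold difference in either direction, as they did for 77.8% of the genes tested. They stayed within 0.5 log2 units of 0 for 9 of the 10, *Tet1* being the exception, and for 31.2% of the genes tested. Over the 10 partners, the intervals ran from a ratio of 0.654 to a ratio of 1.37. The biological coefficient of variation of the partners was between 0.117 and 0.162, with a median of 0.122, against a median of 0.159 over all genes tested. These comparisons were not matched for level. By CPM, the partners stood between the 49.8th (*Tet1*) and the 97.2nd percentile (*Tet3*) of the genes tested. Whether their level accounts for the narrower intervals was not tested.

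**Figure D1:**
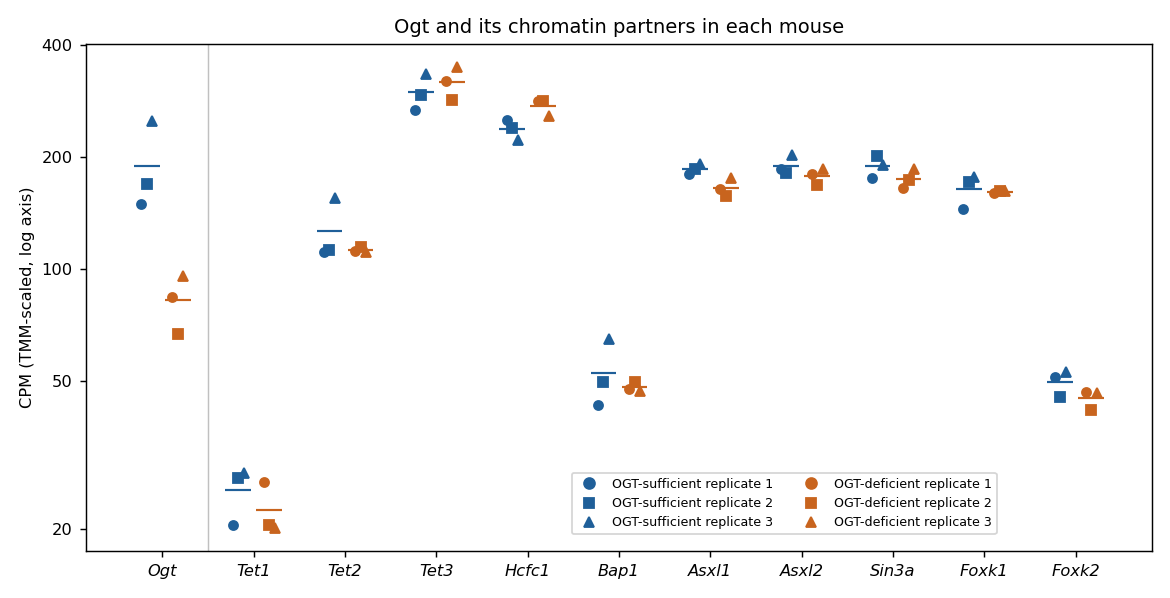
Level of *Ogt* and of each partner in every mouse, as CPM on a log axis, with OGT-sufficient mice in blue, OGT-deficient mice in orange, a symbol for each replicate and a bar at the group mean. The 2 groups are apart for *Ogt*, *Hcfc1* and *Asxl1* and overlap for the other 8 partners, and OGT-sufficient replicate 3 is the highest of the 6 for 7 partners.

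Per length, the partners covered a wide range of levels. CPM was divided by the length of each gene's merged exons in GENCODE M21 to give CPM per kb. *Sin3a* stood at 35.1 ± 2.41 CPM per kb (SD, n = 3) in OGT-sufficient cells, above *Hcfc1* at 28.5 ± 1.76, *Asxl1* at 25.0 ± 0.825, *Foxk1* at 21.7 ± 2.18 and *Tet3* at 17.9 ± 1.98. The order of *Sin3a* and *Hcfc1* was not fixed, as *Sin3a* was the higher in 4 of 6 mice. The ranges over the 6 mice also met for *Asxl1* and *Foxk1*, and for *Foxk1* and *Tet3*. A lower tier held *Asxl2* at 11.9 ± 0.70, *Bap1* at 11.2 ± 2.37, *Foxk2* at 9.47 ± 0.745 and *Tet2* at 7.49 ± 1.51 CPM per kb, each with a range that met that of the next. *Tet1* was the lowest at 1.64 ± 0.276 CPM per kb, and its range did not meet that of *Tet2*. By CPM per kb, *Tet1* stood at the 14.5th percentile of the genes tested and *Sin3a* at the 92.1st. For comparison, *Ogt* was at 23.6 ± 6.67 CPM per kb in OGT-sufficient and 10.2 ± 1.81 in OGT-deficient cells. With the longest transcript in place of merged exons, an alternative added after seeing the data, *Tet3* moved to the third place and *Tet2* above *Bap1*, while *Sin3a* and *Hcfc1* kept the first places and *Tet1* the last.

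*Tet3* was the most abundant TET transcript by CPM per kb. It stood at 269, 294 and 334 CPM in OGT-sufficient replicates 1, 2 and 3, and at 320.4, 285 and 350.0 CPM in OGT-deficient replicates 1, 2 and 3. The groups overlapped, and the ratio was 1.07 (95% interval 0.870 to 1.30, log2 fold change 0.091, standard error 0.13, adjusted p = 0.905 by edgeR). *Tet2* stood at 111, 112 and 156 CPM in OGT-sufficient replicates 1, 2 and 3, and at 112, 115 and 111 CPM in OGT-deficient replicates 1, 2 and 3. OGT-sufficient replicate 3 was high and the other 5 mice lay between 111 and 115 CPM. The ratio for *Tet2* was 0.892 (95% interval 0.707 to 1.12, log2 fold change -0.17, standard error 0.15, adjusted p = 0.848 by edgeR), and without that mouse the log2 fold change was 0.022 (95% interval -0.21 to 0.25 on the log2 scale). *Tet1*, the TET enzyme best known from embryonic stem cells, stood at 20.5, 27.4 and 28.3 CPM in OGT-sufficient replicates 1, 2 and 3, and at 26.7, 20.4 and 20.1 CPM in OGT-deficient replicates 1, 2 and 3. Its groups overlapped, and its ratio of 0.883 (95% interval 0.654 to 1.19) had the widest interval of the 10 (log2 fold change -0.18, standard error 0.19, adjusted p = 0.871 by edgeR). Within each mouse, the share of *Tet3* in the summed CPM per kb of the TET genes does not depend on library size. It was 67.1, 67.6 and 64.4% in the OGT-sufficient mice and 69.7, 67.8 and 72.6% in the OGT-deficient mice, or 66.4 ± 1.72% against 70.0 ± 2.44% (SD, n = 3 each). All 3 OGT-deficient mice were above all 3 OGT-sufficient mice by a narrow margin. *Tet2* held 27.4, 25.6 and 29.7% in the OGT-sufficient mice and 24.1, 27.0 and 22.9% in the OGT-deficient mice, and *Tet1* at most 6.79% in any mouse.

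**Figure D2:**
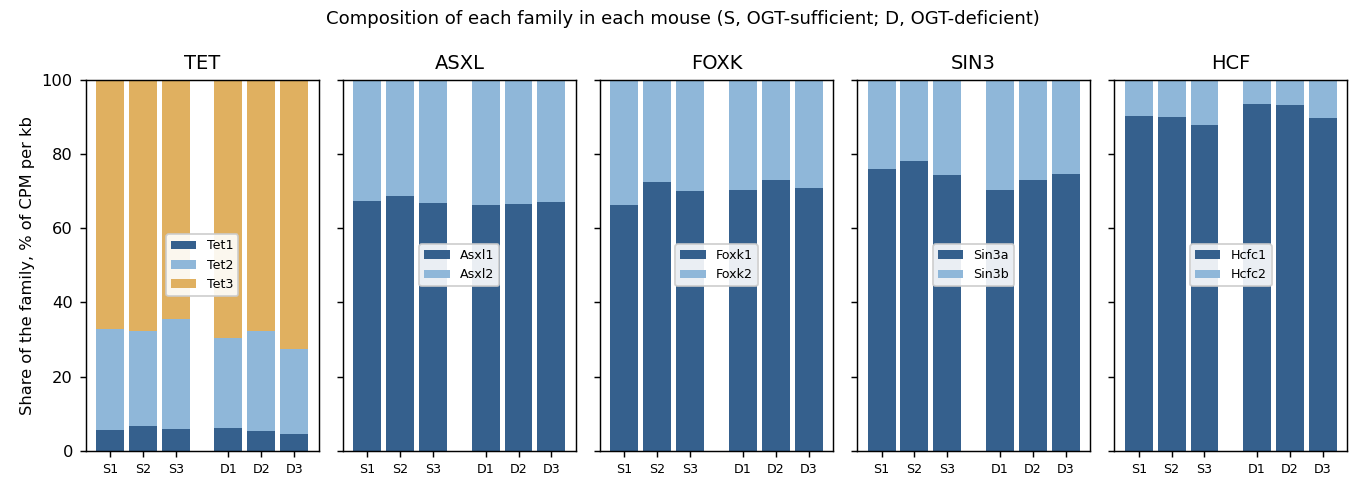
Share of each family member in the summed CPM per kb of its family, as stacked bars in % for each mouse (S1 to S3, OGT-sufficient; D1 to D3, OGT-deficient). *Tet3* holds between 64.4 and 72.6% of the TET family and *Hcfc1* between 87.7 and 93.6% of the HCF pair, and no family changes its leading member between mice on this scale.

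*Hcfc1*, the scaffold that OGT cleaves, had the largest positive value of the 10. It stood at 252, 240.1 and 223 CPM in OGT-sufficient replicates 1, 2 and 3, and at 284, 284 and 258 CPM in OGT-deficient replicates 1, 2 and 3. Every OGT-deficient mouse was above every OGT-sufficient mouse, with 252 CPM in the highest OGT-sufficient and 258 CPM in the lowest OGT-deficient mouse. It had on average 238 ± 14.7 CPM in OGT-sufficient mice and 276 ± 14.9 CPM in OGT-deficient mice (SD, n = 3 each), a ratio of 1.16 (95% interval 0.977 to 1.37). The difference did not pass the test (log2 fold change 0.21, standard error 0.11, unadjusted p = 0.0828, adjusted p = 0.744 by edgeR). Its size was at the 60.9th percentile of the absolute log2 fold changes of all genes tested. When length and GC were corrected for, an alternative added after seeing the data, the log2 fold change was 0.31 (unadjusted p = 0.0468, adjusted p = 0.722), where 6.87% of all genes had an unadjusted p under 0.05. Its paralog *Hcfc2* had on average 18.7 ± 1.55 CPM in OGT-sufficient mice and 15.3 ± 3.48 CPM in OGT-deficient mice (SD, n = 3 each, log2 fold change -0.28, standard error 0.20, adjusted p = 0.792 by edgeR), with overlapping groups. *Hcfc1* held 90.3, 89.9 and 87.7% in the OGT-sufficient mice and 93.6, 93.1 and 89.8% in the OGT-deficient mice of the summed CPM per kb of the pair, and the groups overlapped narrowly, since OGT-deficient replicate 3 lay below OGT-sufficient replicates 1 and 2.

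*Bap1*, the catalytic subunit of the H2A deubiquitinase, stood at 43.1, 49.6 and 64.8 CPM in OGT-sufficient replicates 1, 2 and 3, and at 47.5, 49.6 and 47.0 CPM in OGT-deficient replicates 1, 2 and 3. The OGT-deficient mice lay within the range of the OGT-sufficient ones, which OGT-sufficient replicate 3 widened upwards. The ratio was 0.915 (95% interval 0.710 to 1.18, log2 fold change -0.13, standard error 0.16, adjusted p = 0.897 by edgeR), and without that mouse the log2 fold change was 0.060 (95% interval -0.23 to 0.35 on the log2 scale). *Asxl1*, which activates BAP1, stood at 179.9, 186 and 192 CPM in OGT-sufficient replicates 1, 2 and 3, and at 164, 157 and 176 CPM in OGT-deficient replicates 1, 2 and 3. Every OGT-deficient mouse was below every OGT-sufficient mouse, with 179.9 CPM in the lowest OGT-sufficient and 176 CPM in the highest OGT-deficient mouse. The ratio was 0.891 (95% interval 0.757 to 1.05) and did not pass the test (log2 fold change -0.17, standard error 0.10, unadjusted p = 0.145, adjusted p = 0.773 by edgeR). *Asxl2*, the alternative partner of BAP1, stood at 186, 181 and 202 CPM in OGT-sufficient replicates 1, 2 and 3, and at 180.1, 168 and 186 CPM in OGT-deficient replicates 1, 2 and 3. Its groups overlapped at a ratio of 0.938 (95% interval 0.794 to 1.11, log2 fold change -0.092, standard error 0.11, adjusted p = 0.882 by edgeR). *Asxl3* had 4 counts in OGT-sufficient replicate 3 and 0 in the other samples, where 3 counts correspond to between 0.756 and 0.805 CPM. *Asxl1* held 67.7 ± 0.938% against 66.6 ± 0.424% (SD, n = 3 each) of the summed CPM per kb of the ASXL genes and *Asxl2* nearly all of the rest. By counts, with no division by length, *Asxl1* held a mean of 49.5% and 48.2% and *Asxl2* 50.4% and 51.8% in OGT-sufficient and OGT-deficient mice, so which of these genes leads depends on that division.

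*Sin3a* stood at 175, 201 and 191 CPM in OGT-sufficient replicates 1, 2 and 3, and at 165, 174 and 186 CPM in OGT-deficient replicates 1, 2 and 3. The groups overlapped, and the ratio was 0.926 (95% interval 0.779 to 1.10, log2 fold change -0.11, standard error 0.11, adjusted p = 0.863 by edgeR). Its paralog *Sin3b*, the scaffold of a related deacetylase complex, had on average 80.9 ± 8.03 CPM in OGT-sufficient mice and 90.0 ± 4.48 CPM in OGT-deficient mice (SD, n = 3 each), with a value in the other direction (log2 fold change 0.15, standard error 0.12, adjusted p = 0.815 by edgeR). The share of *Sin3a* in the pair, by CPM per kb, was 75.9, 78.2 and 74.3% in the OGT-sufficient mice and 70.4, 72.9 and 74.6% in the OGT-deficient mice. That is 76.1 ± 1.99% against 72.6 ± 2.14% (SD, n = 3 each), with OGT-deficient replicate 3 inside the OGT-sufficient range.

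*Foxk1*, a forkhead partner of BAP1, stood at 146, 171 and 176 CPM in OGT-sufficient replicates 1, 2 and 3, and at 159.8, 162 and 162 CPM in OGT-deficient replicates 1, 2 and 3. The OGT-deficient mice lay within 159.8 to 162 CPM, inside the range of the OGT-sufficient mice, at a ratio of 0.981 (95% interval 0.821 to 1.17, log2 fold change -0.028, standard error 0.11, adjusted p = 0.965 by edgeR). This was the value nearest to 0 of the 10. *Foxk2* stood at 51.4, 45.3 and 52.7 CPM in OGT-sufficient replicates 1, 2 and 3, and at 46.8, 41.8 and 46.5 CPM in OGT-deficient replicates 1, 2 and 3. OGT-sufficient replicate 2 lay below 2 of the OGT-deficient mice, and the ratio was 0.904 (95% interval 0.742 to 1.10, log2 fold change -0.15, standard error 0.13, adjusted p = 0.844 by edgeR). *Foxk1* held 69.5 ± 3.07% against 71.3 ± 1.39% (SD, n = 3 each) of the summed CPM per kb of the pair.

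In all, 8 shares within families were compared between the groups by an exact two-sided permutation test. It cannot give a p under 0.1 for 3 mice against 3, so none could pass 0.05. The shares of *Tet3* and *Asxl2* reached that smallest value of 0.1, and the others lay between 0.2 and 0.4. After Benjamini-Hochberg adjustment over the 8 shares, the values lay between 0.32 and 0.4. Shares of the same family add up to a whole, so the 8 are not separate comparisons. Those of *Asxl1* and *Asxl2* are mirror images except in OGT-sufficient replicate 3, the only sample with *Asxl3* counts (4). There *Asxl1* held 66.915%, just under the 66.97% of OGT-deficient replicate 3, so its groups overlapped. The *Asxl2* groups were apart by a narrow margin, with 32.91% in the highest OGT-sufficient and 33.03% in the lowest OGT-deficient mouse.

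**Figure D3:**
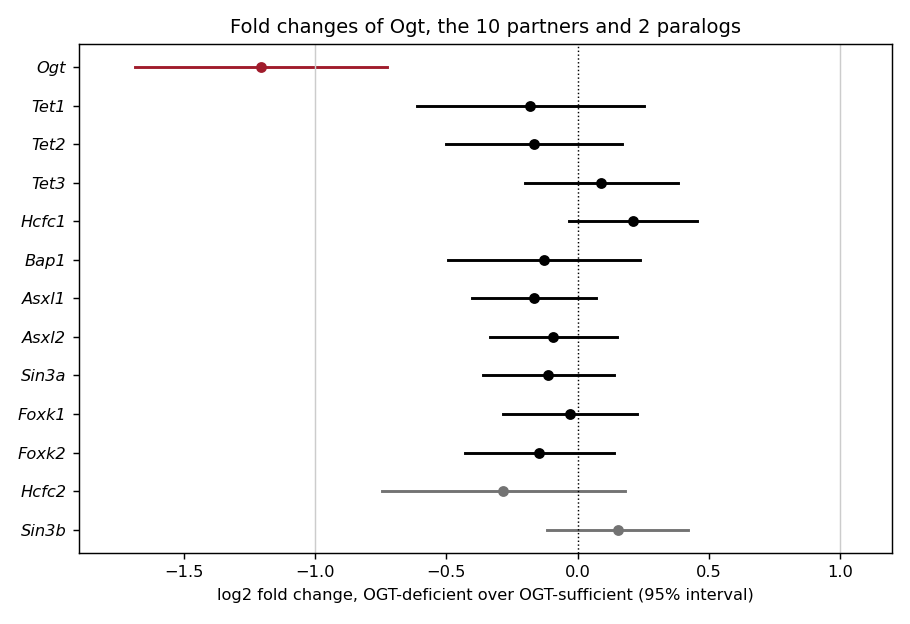
Log2 fold change of OGT-deficient over OGT-sufficient mice (points) with 95% intervals (lines) from edgeR's quasi-likelihood fit for *Ogt*, the 10 partners and the paralogs *Hcfc2* and *Sin3b* in grey. The interval of *Ogt* runs from -1.68 to -0.73, while those of the 10 partners all include 0 and stay inside the grey lines at -1 and 1.

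Genes that share complexes or reactions with the partners were then counted in 4 lists. Of 89 genes, 86 were tested, and *Tdg*, *Pcgf1* and *Asxl3* did not pass the low-count filter. At an unadjusted p under 0.05, 6 of the 86 (6.98%) were called, 2 higher (3.09% of all genes were) and 4 lower (4.01%) in OGT-deficient cells, where 7.1% of all genes tested were called. None passed an adjusted p of 0.1 in edgeR's quasi-likelihood test. The 6 genes thus passed at the unadjusted level only. The groups did not overlap for 12 of the 86 (13.2% of all genes tested), 2 higher (5.72%) and 10 lower (7.48%) in OGT-deficient mice.

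In the list of DNA methylation and demethylation, 1 of 13 genes tested had an unadjusted p under 0.05, and the median log2 fold change was -0.072. It was *Smug1*, a glycosylase that removes uracil and oxidized bases, at 22, 28 and 31 counts in OGT-sufficient replicates 1 to 3 and 10, 18 and 13 counts in OGT-deficient replicates 1 to 3. It averaged 7.16 ± 1.18 CPM in OGT-sufficient and 3.50 ± 0.987 CPM in OGT-deficient mice (SD, n = 3 each) with no overlap (log2 fold change -1.03, standard error 0.31, unadjusted p = 0.00920, adjusted p = 0.522 by edgeR). In the list of HCF1, SET1/MLL and NSL complexes, 2 of 26 did, with a median of -0.098. *Wdr82*, a subunit of the SET1 complexes that contain HCF1, averaged 188 ± 16.0 CPM in OGT-sufficient and 256 ± 15.4 CPM in OGT-deficient mice (SD, n = 3 each) without overlap (log2 fold change 0.45, standard error 0.11, unadjusted p = 0.00350, adjusted p = 0.388 by edgeR). A microRNA gene, *Mirlet7g*, lies within *Wdr82*. *Kansl2*, which hosts small RNA genes and encodes a subunit of the NSL complex that contains HCF1 and OGT, averaged 12.7 ± 1.66 CPM in OGT-sufficient and 9.15 ± 0.241 CPM in OGT-deficient mice (SD, n = 3 each) without overlap (log2 fold change -0.48, standard error 0.20, unadjusted p = 0.0416, adjusted p = 0.685 by edgeR). The unadjusted p of *Kansl2* stayed under 0.05 in 3 of the 14 alternative settings and reached 0.156 with DESeq2. Without OGT-sufficient replicate 3, the values of this list lay below 0 for 13 genes and above 0 for 13, with a median of -0.0026.

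In the list of H2A ubiquitin and Polycomb genes, 1 of 22 had an unadjusted p under 0.05, and the median was -0.099. It was *Ezh2*, the histone H3 lysine methyltransferase of Polycomb complexes, which averaged 105 ± 9.14 CPM in OGT-sufficient and 80.4 ± 3.36 CPM in OGT-deficient mice (SD, n = 3 each) without overlap (log2 fold change -0.39, standard error 0.12, unadjusted p = 0.00838, adjusted p = 0.516 by edgeR). Values were below 0 for 17 of the 22 (52.7% of all genes tested). In the SIN3-HDAC list, 2 of 25 did, with a median of 0.0039. Both encode SIN3-binding repressors of the MYC network, and their values had opposite signs. *Mxd1* had 398, 465 and 427 counts in OGT-sufficient replicates 1 to 3 and 692, 704 and 538 counts in OGT-deficient replicates 1 to 3 and averaged 114 ± 9.62 CPM in OGT-sufficient and 165 ± 21.5 CPM in OGT-deficient mice (SD, n = 3 each, log2 fold change 0.53, standard error 0.13, unadjusted p = 0.00303, adjusted p = 0.385 by edgeR). *Mnt* had 187, 189 and 167 counts in OGT-sufficient replicates 1 to 3 and 141, 160 and 152 counts in OGT-deficient replicates 1 to 3 and averaged 48.1 ± 3.75 CPM in OGT-sufficient and 38.7 ± 2.2 CPM in OGT-deficient mice (SD, n = 3 each, log2 fold change -0.31, standard error 0.13, unadjusted p = 0.0366, adjusted p = 0.673 by edgeR). The groups did not overlap for either gene. The unadjusted p of *Mnt* stayed under 0.05 in 4 of the 14 settings and reached 0.145 with DESeq2, while those of *Smug1*, *Wdr82*, *Ezh2* and *Mxd1* stayed under 0.05 in all 14. The genes were named for an unadjusted p under 0.05 and the settings reuse the same samples, so these values are no independent evidence. Without OGT-sufficient replicate 3 the list medians were -0.051 for DNA methylation, -0.060 for H2A ubiquitin and Polycomb and 0.027 for SIN3-HDAC. Over the alternative settings the lowest adjusted p was 0.0582 for *Mxd1* with no low-count filter, the only call among these 6 genes at 0.1 in any setting, 0.151 for *Wdr82* and at least 0.256 for the other 4.

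**Figure D4:**
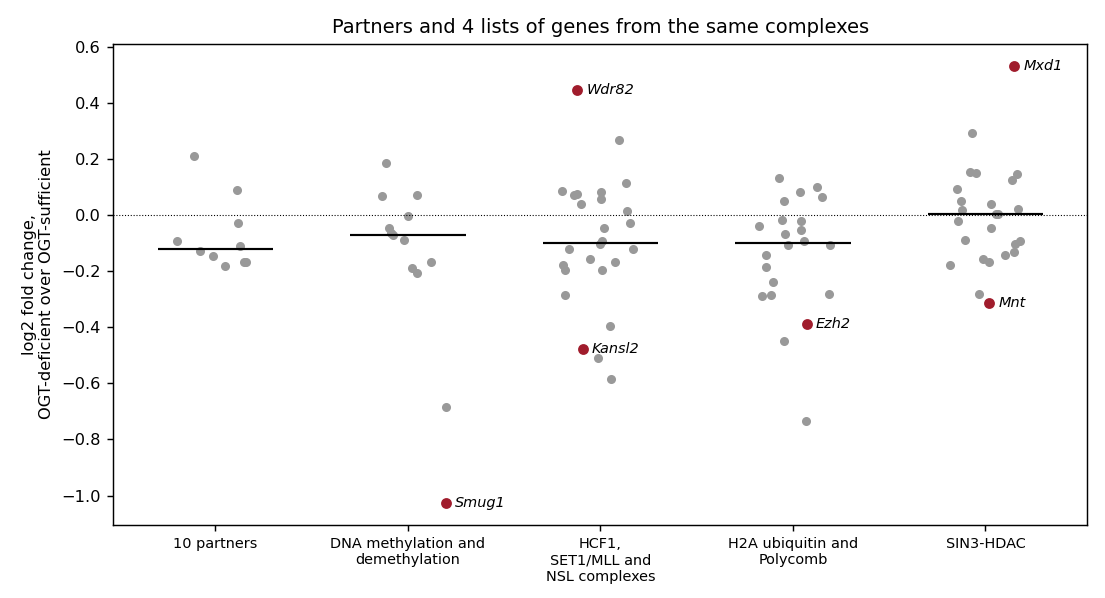
Log2 fold change of OGT-deficient over OGT-sufficient mice for the 10 partners and for each gene tested in the 4 lists (points), with the median of each list as a bar. Genes with an unadjusted p under 0.05 are red and named, and none of the 10 partners is among them.

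Across the 6 mice, the gene whose log2 CPM followed each partner most closely was *Ppp1r12a* for *Tet1*, *Acpp* for *Tet2*, *Polr3f* for *Tet3*, *Rpusd1* for *Hcfc1*, *Clcn3* for *Bap1*, *Trmt1l* for *Asxl1*, *Tmem180* for *Asxl2*, *Klhl24* for *Sin3a*, *Zdhhc17* for *Foxk1* and *Rfc5* for *Foxk2*. Pearson's r of these pairs lay between 0.979 and 0.999 over n = 6 samples, the best of 10948 genes each. *Acpp* was at 18.4 CPM in OGT-sufficient replicate 3 and at 7.57 to 8.25 CPM elsewhere, so its match with *Tet2* rests largely on that sample. The same holds for *Clcn3* and *Bap1*, with *Clcn3* at 96.7 CPM there and 51.6 to 66.3 CPM elsewhere. *Tmem180* (1.76 to 4.46 CPM) and *Rpusd1* (2.36 to 5.65 CPM) had low levels in all samples. Between 17 and 89 genes had an r over 0.95 with a given partner, so the choice among them is narrow. How many of the 10948 genes would reach that r by chance over 6 samples was not tested. The samples share library preparation and scaling, and the values are a description.

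OGT-sufficient replicate 3 was the highest of the 6 samples for 7 of the 10 partners. The share of all genes tested that were highest in this sample is not given here, so the count is not read as a trait of the partners. Without this sample, 5 of the 10 had a negative and 5 a positive log2 fold change, and the median went from -0.12 to -0.0059. *Ogt* was still lower without it, at a log2 fold change of -0.94 (unadjusted p = 0.000215). Of the 140 values that the 14 alternative settings gave for the 10 partners, 131 kept their sign, and the 9 that did not were at most 0.071 in size. The lowest adjusted p of any partner over these settings was 0.678, for *Hcfc1*.

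**Figure D5:**
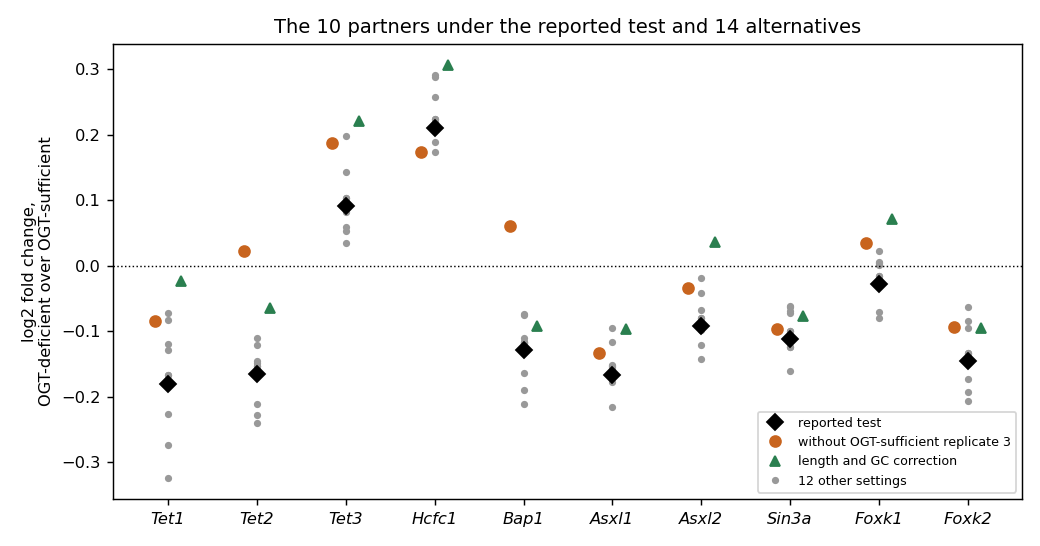
Log2 fold change of each partner in the reported test (black diamonds) and in 14 alternatives, with OGT-sufficient replicate 3 left out in orange and length and GC corrected for in green. *Tet2*, *Bap1* and *Foxk1* move from below to above 0 without that mouse, and *Hcfc1* and *Tet3* stay above 0 in all 14.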

How the data were processed

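RNA of sorted YFP+ Treg cells of 6 female mice, 3 a group, was sequenced as paired ends. The authors trimmed the reads with Trimmomatic 0.33, checked them with FastQC and aligned them with Bowtie2 2.2.4.0. For quantification the paper names Cuffquant, while the submitters' processing notes name featureCounts and mm10. The deposited values are whole numbers per gene symbol, taken here as raw counts. The deposited results of the authors' own test and their group means were not used.

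Software was R 4.3.3, edgeR 4.0.16, DESeq2 1.42.0, Python 3.11.15 and scipy 1.17.1. The reported values come from edgeR's quasi-likelihood test, tried first on simulated counts. Libraries were scaled by TMM, filterByExpr was run with a minimum count of 10, samples were not blocked by number, and p-values were Benjamini-Hochberg adjusted over 10949 genes. A standard error is the absolute log2 fold change divided by the root of the F statistic, and 95% intervals use the t quantile at the degrees of freedom of the fit. The floor is 3 counts and covers counting error only. Patterns were compared on log2(CPM + 0.5).

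The members and gene lists were chosen with earlier results of these data known. Named genes are the 10 partners, *Ogt*, family paralogs, cell markers, the closest gene to each partner, and up to 3 genes of each direction and list with the lowest unadjusted p under 0.05. Promoter motifs were chosen after seeing the data. The alternatives swapped the test (DESeq2, exact test), the scaling (DESeq2 size factors, none beyond library size) or the filter (none, or 10 counts in each sample), added the replicate block, or dropped 1 sample. Length and GC correction and longest-transcript lengths were added after seeing the data. No 2 replicates appeared to be the same library (chi-square per degree of freedom from 3.31 to 22.0). The labels give separate samples, each taken here as a separate mouse. The p-values set the difference between groups against the spread among samples within a group.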

Additional observations from a re-analysis of the deposited data

How the results depend on the processing

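Genes past an adjusted p of 0.1 numbered 3 in the edgeR quasi-likelihood test run here, which is not the authors' own test. They numbered 38 by DESeq2, 80 by the exact test, 131 with no filter and 1 with length and GC corrected for. Dropping a sample gave 0 (OGT-deficient replicate 2 or 3, with 462 or 742 genes past an unadjusted 0.05) to 9 (OGT-sufficient replicate 3). Past an unadjusted 0.05 there were 777 genes in the reported test, 452 with DESeq2, 1208 with no filter and 462 to 889 with a sample dropped. No partner passed an adjusted p of 0.1 in any of the 14 settings, and *Hcfc1* alone, 1 of 10, passed an unadjusted 0.05 with length and GC corrected for. In the 4 lists, 4 to 7 genes passed an unadjusted 0.05 across settings, against 6 in the quasi-likelihood test run here.

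Log2 fold changes turned positive for *Tet2* (0.022), *Bap1* (0.060) and *Foxk1* (0.034) without OGT-sufficient replicate 3, and for *Asxl2* (0.036) and *Foxk1* (0.071) with length and GC corrected for. With a sample dropped, *Tet2* ranged from -0.239 to 0.022, *Bap1* from -0.212 to 0.060 and *Foxk1* from -0.070 to 0.034. *Foxk1*, the nearest to 0, was positive in 6 of the 14 settings, among them no filter (0.022). The cause was not tested. *Ogt* passed an adjusted p of 0.1 with DESeq2 (-1.19), the exact test (-1.21) and no filter (-1.15). Family shares themselves depend on the length used: from CPM per kb to counts, the mean share of *Asxl1* in OGT-sufficient mice went from 67.7% to 49.5%, and with the longest transcript that of *Sin3a* went from 76.1% to 64.9% and that of *Hcfc1* from 89.3% to 84.0%. The differences between groups in the 8 shares kept their sign and moved by less than the larger of their group SDs, though with a sample dropped the *Foxk1* difference ranged from 0.172 to 3.23 percentage points and that of *Asxl1* from -1.51 to -0.600.

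The labels state no pairing by replicate number, and deviations of same-numbered samples correlated at -0.281, 0.0073 and -0.118. These correlations cannot exclude pairing, as each group has 3 samples and OGT-sufficient replicate 3 stood apart. The replicate block left 0 genes past an adjusted p of 0.1 and 679 past an unadjusted 0.05. Depth limits *Tet1* most among the partners, at 77 to 108 counts per sample.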
